A study of Mus musculus with 6 samples.

Results

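The antiviral interferon effectors examined here were 10 genes, Ifit1, Ifit2, Ifit3, Rsad2, Isg15, Oasl2, Oas1a, Mx1, Usp18 and Bst2, chosen by symbol among the 39179 genes of the count table. Their transcripts were measured in tumor-associated macrophages (TAMs) sorted from subcutaneous melanomas of a Braf V600E cell line in C57BL/6 hosts aged 8 weeks. In 3 libraries the injected tumor cells carried intact Ptgs1 and Ptgs2 (Ptgs-competent), the genes of the cyclooxygenases COX-1 and COX-2, and in the other 3 both genes had been deleted by CRISPR (Ptgs-deficient). The macrophages themselves were of unedited host genotype in both groups, and each library was made from a pool of tumors. The comparison asked whether macrophages carry more transcript of this antiviral program when the tumor cells around them lack both cyclooxygenases. Of the 10 genes, 9 had enough counts to be tested and Mx1 did not.

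These genes are induced when type I, II or III interferon engages its receptor. Type I and III signals act mainly through the interferon-stimulated response element (ISRE) in gene promoters, and interferon-γ acts mainly through the gamma-activated sequence (GAS). The IFIT proteins recognise viral RNA, the OAS enzymes make oligoadenylates in response to double-stranded RNA, and the MX proteins are GTPases that block viral replication. In macrophages the same set is used as a readout of interferon exposure, also in tumors without any virus.

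The libraries held 4431184 to 8760679 counts from transcript 3′ ends, and 8793 genes were tested. Libraries of 1 group differed widely, with Pearson correlations of log2 levels across genes of 0.480 to 0.553 among Ptgs-competent and 0.600 to 0.720 among Ptgs-deficient libraries. Macrophage markers were present in every library, but the sum of 10 of them, as CPM (counts scaled to library size by TMM), stood at 16194, 17453 and 6207 for Ptgs-competent against 20830, 20701 and 24923 for Ptgs-deficient libraries. Ptgs-competent replicate 3 stood lowest, with Csf1r at 228 CPM and Cd68 at 26.2 CPM, and the values without it are given where they bear on a result. Not every marker was low there, as Mertk differed little among the Ptgs-competent libraries (98.2 ± 8.77 CPM, SD, n = 3). Monocyte markers (5 genes) summed to 224 to 494 CPM in Ptgs-competent and 1435 to 2325 CPM in Ptgs-deficient libraries, and 8 tissue macrophage markers to 115 to 371 and 1023 to 1410 CPM. Of 6 plasmacytoid dendritic cell markers, Klk1, Pacsin1 and Spib were at 0 throughout and the list summed to 0 CPM in every Ptgs-competent and 7.65 to 24.7 CPM in the Ptgs-deficient libraries. Of 8 NK cell markers, Ncr1, Klrd1, Klre1 and Prf1 were at 0 throughout and the list summed to 2.05 to 2.34 CPM and 0.614 to 21.7 CPM. Of 8 melanoma markers, Pmel, Mlana, Tyr, Tyrp1, Dct and Sox10 were at 0 throughout, and the list summed to 124 to 594 CPM in Ptgs-competent and 32.8 to 61.2 CPM in Ptgs-deficient libraries. That sum came from 2 genes that went opposite ways without overlap, the matrix gene Sparc (1128, 765 and 2785 counts against 124, 148 and 178) and Mitf, a transcription factor also used outside melanocytes (12, 0 and 3 counts against 58, 372 and 88). Ptgs1 lay at 31.0, 64.4 and 99.1 CPM and at 19.8, 27.9 and 42.1 CPM, and Ptgs2 at 12.6, 52.4 and 99.1 CPM and at 9.92, 53.1 and 19.0 CPM. Both groups overlapped for each gene, and because the deletion was in the tumor cells these levels do not check the labels.

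Summed over the 10 antiviral genes, the CPM level was 551, 761 and 364 for Ptgs-competent libraries and 1560, 1929 and 1354 for Ptgs-deficient libraries. The groups did not overlap in this sum. Ifit2, Ifit3 and Rsad2 accounted for the largest fold differences whose ranges stayed apart. Isg15 was about doubled in CPM, and the other members overlapped between groups. Per summed count of the 10 macrophage markers, the ratio of Isg15 was 1.11, and 1.60 without Ptgs-competent replicate 3. By the edgeR quasi-likelihood test, 0 of the 9 tested members met the definition of a changed gene, an adjusted p (FDR) of 0.05 or lower with a log2 fold change of at least 1.5, where 0.216% of all tested genes did. At an unadjusted p under 0.05, 4 of the 9 were higher in TAMs of Ptgs-deficient tumors (Ifit2, Ifit3, Rsad2 and Isg15), where 5.00% of tested genes were, and none was lower, where 3.82% were. The same 4 genes were those whose Ptgs-deficient libraries all lay above every Ptgs-competent library, a pattern seen in 970 tested genes (11%), and none lay wholly below, as 8.01% of tested genes did. The edgeR likelihood ratio test, which carries less of the uncertainty in each gene's spread, called 3 of the 9 higher (Ifit2, Ifit3 and Rsad2), where it called 1.55% of tested genes higher. The fitted fold change was above 0 for 9 of 9 members and for 50.7% of all tested genes, and the median log2 fold change was 1.31 for the members and 0.02 for all tested genes. The members' median was 3.82 without Ptgs-competent replicate 1, 2.90 without Ptgs-competent replicate 2 and 1.88 without Ptgs-deficient replicate 1, so its size depends on single libraries. Ifit2 passed the count filter through the Ptgs-deficient libraries alone and so had to differ. Of the other 8 tested members, 3 had an unadjusted p under 0.05 and 2 were called by the likelihood ratio test. In sorted bulk samples, fewer cells of a type and less RNA per cell cannot be told apart. Monocyte and tissue macrophage markers moved with the same groups, as their sums above show. Of their tested genes, 3 monocyte and 5 tissue macrophage markers were higher at an unadjusted p under 0.05, but Timd4 and Cd5l among the latter passed the count filter through the Ptgs-deficient libraries alone. Of these genes, the quasi-likelihood test called Plac8 (log2 fold change 3.20, FDR of 0.0230) and Cd5l, which had 1, 0 and 3 counts against 974, 1257 and 1545 counts (FDR of 0.00453). The part of these markers and of the macrophage markers in the members' differences was not tested.

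**Figure D1:**
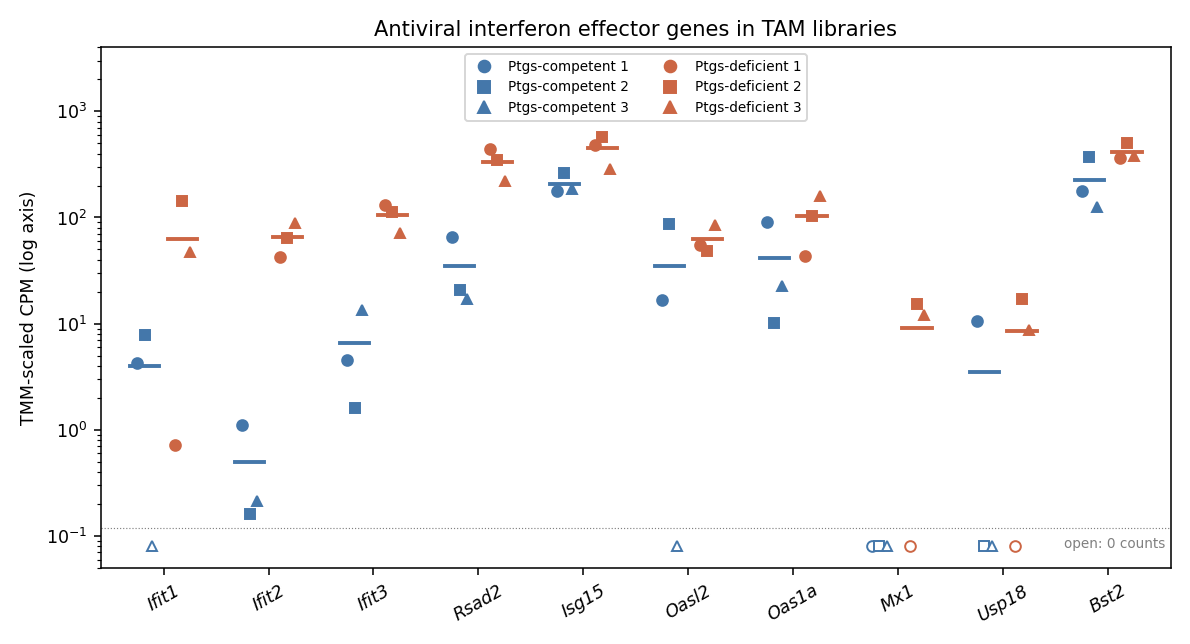
Level of each antiviral gene in each library, as TMM-scaled CPM on a log axis; blue marks are Ptgs-competent and orange marks Ptgs-deficient libraries, the shape gives the replicate, horizontal bars are group means, and open marks on the lowest line are libraries with 0 counts. The orange marks lie wholly above the blue ones for Ifit2, Ifit3, Rsad2 and Isg15, while Ifit1 in Ptgs-deficient replicate 1 (0.721 CPM) falls among the blue marks.

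The members' promoters were searched for the ISRE core, GAAA followed after any 2 bases by GAAA again (on the other strand TTTC, any 2 bases, TTTC). They were also searched for the GAS core, TTCNNNGAA, which reads the same on both strands. Windows of 300 bases, 250 before to 50 after the transcription start, were taken from RefSeq (GRCm38.p6), and 8 of the 10 members were matched, all but Mx1 and Usp18. The ISRE core occurred in 6 of these 8 members and in 3.44% of the 32851 promoters of the same length. Of the members, 5 held it at least 2 times, as did 0.225% of all promoters. Because the members are known interferon-induced genes, these shares do not bear on the difference between groups. The GAS core occurred in 3 members (Ifit2, Oas1a and Bst2) and in 8.30% of all promoters. The windows of Ifit2, which has 2 listed starts, and of Oasl2 held no ISRE core, which says only that these letters are not in those windows. The 6 windows with a match are printed because they carry the element through which type I interferon is known to act on such genes. They run 5′ to 3′ on the gene's own strand, with ISRE core matches in capitals:
Ifit1, chr19:34640639-34640938, plus strand: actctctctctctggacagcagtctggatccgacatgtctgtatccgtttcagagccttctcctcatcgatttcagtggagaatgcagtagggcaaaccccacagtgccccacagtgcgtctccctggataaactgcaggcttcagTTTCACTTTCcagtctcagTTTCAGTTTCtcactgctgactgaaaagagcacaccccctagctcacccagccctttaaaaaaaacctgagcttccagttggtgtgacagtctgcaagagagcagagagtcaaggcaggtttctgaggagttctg
Ifit3, chr19:34583279-34583578, plus strand: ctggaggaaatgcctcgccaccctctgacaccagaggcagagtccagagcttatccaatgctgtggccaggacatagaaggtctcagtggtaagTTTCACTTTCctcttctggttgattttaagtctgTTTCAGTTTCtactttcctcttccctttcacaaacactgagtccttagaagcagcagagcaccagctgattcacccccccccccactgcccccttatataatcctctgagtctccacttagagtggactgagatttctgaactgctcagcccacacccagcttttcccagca
Rsad2, chr12:26456403-26456702, minus strand: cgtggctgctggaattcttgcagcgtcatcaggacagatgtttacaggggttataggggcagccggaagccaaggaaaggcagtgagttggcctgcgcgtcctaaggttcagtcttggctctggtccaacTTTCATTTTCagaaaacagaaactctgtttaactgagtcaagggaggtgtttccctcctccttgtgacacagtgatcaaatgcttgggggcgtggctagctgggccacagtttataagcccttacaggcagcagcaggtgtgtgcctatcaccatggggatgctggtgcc
Isg15, chr4:156200769-156201068, minus strand: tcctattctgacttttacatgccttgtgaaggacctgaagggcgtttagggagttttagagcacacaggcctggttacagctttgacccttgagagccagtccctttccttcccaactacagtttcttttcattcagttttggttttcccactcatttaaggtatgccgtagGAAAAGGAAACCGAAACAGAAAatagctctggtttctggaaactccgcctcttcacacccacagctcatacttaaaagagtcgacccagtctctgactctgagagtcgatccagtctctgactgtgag
Oas1a, chr5:120907476-120907775, minus strand: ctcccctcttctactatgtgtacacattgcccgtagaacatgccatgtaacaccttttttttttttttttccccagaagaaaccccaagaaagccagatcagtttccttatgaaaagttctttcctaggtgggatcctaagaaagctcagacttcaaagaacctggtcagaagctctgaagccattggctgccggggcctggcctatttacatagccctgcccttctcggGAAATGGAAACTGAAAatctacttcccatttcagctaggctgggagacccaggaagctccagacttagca
Bst2, chr8:71537423-71537722, minus strand: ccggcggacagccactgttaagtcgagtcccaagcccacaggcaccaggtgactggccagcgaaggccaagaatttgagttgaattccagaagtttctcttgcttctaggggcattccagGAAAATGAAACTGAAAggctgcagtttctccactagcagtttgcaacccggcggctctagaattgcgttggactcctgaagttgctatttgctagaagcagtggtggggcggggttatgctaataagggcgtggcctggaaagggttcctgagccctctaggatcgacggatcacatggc

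The matches lay upstream of the start in each of these genes, from position -156 in Ifit3 to position -5 in Oas1a, counted in bases from the start. Isg15 held 3 overlapping matches in 1 run, Oas1a and Bst2 held 2 overlapping matches each, Ifit1 and Ifit3 held 2 separate ones, and Rsad2 held 1. In Bst2 the first ISRE core overlapped a GAS core. These are matches of letters, not measured binding.

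**Figure D2:**
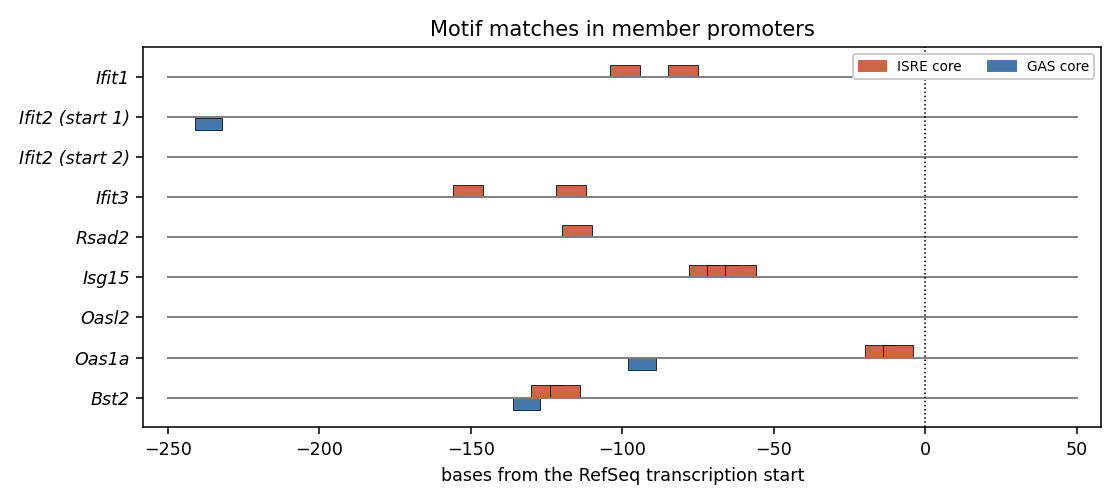
Position of motif matches in the promoter windows of 8 members; the horizontal axis is the distance in bases from the RefSeq transcription start (dotted line), orange boxes are ISRE cores and blue boxes GAS cores, on either strand. The ISRE boxes lie between positions -156 and -5, and Oasl2 and the second start of Ifit2 carry neither motif.

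The 3 IFIT members are neighbours on chromosome 19 (GRCm38), Ifit2 at chr19:34550694-34576419, Ifit3 at chr19:34583531-34588731 and Ifit1 at chr19:34640871-34650009, all on the plus strand. Ifit2 (ENSMUSG00000045932), which encodes an RNA-binding partner of the other IFIT proteins, showed the largest fold difference of the tested members. It had 7, 1 and 1 counts in Ptgs-competent and 235, 549 and 435 counts in Ptgs-deficient libraries. In CPM this was 0.493 ± 0.529 against 65.3 ± 23.3 (SD, n = 3 each), and the lowest Ptgs-deficient library was 38.4 times the highest Ptgs-competent one. The log2 fold change was 6.97 ± 1.45 (SE), with an unadjusted p of 0.000714 and an FDR of 0.105 by the quasi-likelihood test and an FDR of 0.00112 by the likelihood ratio test. The Ptgs-competent group rests on 9 counts in all, so the size of the fold is poorly fixed. Ifit2 passed the count filter through the Ptgs-deficient libraries alone, so these p-values are no support for a difference. In the fit without a filter on low counts, where every gene with a count is kept, the FDR was 0.00540.

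Ifit3 (ENSMUSG00000074896), whose human counterpart stabilises the binding of IFIT1 to RNA, had 29, 10 and 63 counts in Ptgs-competent and 733, 955 and 351 counts in Ptgs-deficient libraries. Every Ptgs-deficient library was thus above every Ptgs-competent one, by at least 5.35 times in CPM. The means were 6.54 ± 6.14 CPM and 105 ± 30.8 CPM (SD, n = 3 each). The log2 fold change was 4.01 ± 0.96 (SE), with an unadjusted p of 0.00184 and an FDR of 0.158 by the quasi-likelihood test and an FDR of 0.0103 by the likelihood ratio test. The highest Ptgs-competent value came from replicate 3, and without that library the log2 fold change was 5.12. The last 400 bases of Ifit3 share 19.1% of their 50-base windows with its near copy Ifit3b, so that some reads may be split between the pair or lost. Ifit3b, named I830012O16Rik in the count table, had 212, 709 and 0 counts in Ptgs-competent and 366, 894 and 167 counts in Ptgs-deficient libraries. Its groups overlapped.

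Ifit1 (ENSMUSG00000034459), which binds viral messenger RNA lacking cap methylation, had 27, 48 and 0 counts in Ptgs-competent and 4, 1209 and 229 counts in Ptgs-deficient libraries. It was high in Ptgs-deficient replicates 2 and 3, while replicate 1 lay below 2 of the 3 Ptgs-competent libraries. The means were 4.01 ± 3.90 CPM and 63.3 ± 72.2 CPM (SD, n = 3 each), and the fitted log2 fold change of 3.97 ± 1.94 (SE) had an unadjusted p of 0.0680 and an FDR of 0.668 by edgeR. Without Ptgs-deficient replicate 2 the log2 fold change was 2.56. A mean over the group therefore describes none of its libraries.

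Rsad2 (ENSMUSG00000020641, chr12:26442746-26456452, minus strand) encodes viperin, which makes a nucleotide that stops viral RNA synthesis. It had 419, 128 and 80 counts in Ptgs-competent and 2436, 2923 and 1079 counts in Ptgs-deficient libraries, with no overlap. The means were 34.6 ± 27.3 CPM and 335 ± 110 CPM (SD, n = 3 each), and the lowest Ptgs-deficient library was 3.34 times the highest Ptgs-competent one. At a fitted log2 fold change of 3.27 ± 0.60 (SE) and an unadjusted p of 0.000280, Rsad2 stood at rank 29 by p of the 8793 genes. Its FDR was 0.0762 by the quasi-likelihood test and 0.000511 by the likelihood ratio test. Of the members it had the smallest p and the most counts among those with large fold changes, and its log2 fold change lay between 2.54 and 4.15 over the alternatives.

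**Figure D3:**
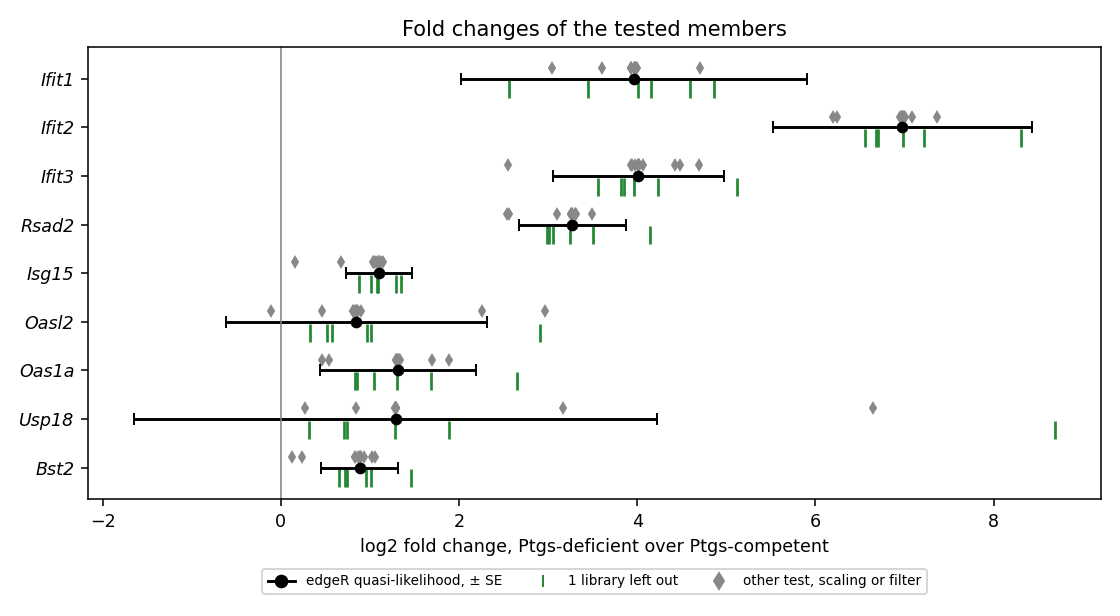
Log2 fold change, Ptgs-deficient over Ptgs-competent, of the 9 tested members; black points with bars are the edgeR quasi-likelihood estimate ± SE, green ticks are the fits with 1 library left out, and grey diamonds are the other tests, scalings and filters. Each mark but 1 of Oasl2, at -0.12, lies above 0, the bars of Ifit1, Ifit2, Ifit3 and Rsad2 lie above 2, and Usp18 moves from 0.31 to 8.69 when 1 library is left out.

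Isg15 (ENSMUSG00000035692, chr4:156199424-156200818, minus strand) encodes a ubiquitin-like protein that is secreted or coupled to other proteins. It was the member with the highest mean CPM in the Ptgs-deficient group, with 1137, 1603 and 871 counts in Ptgs-competent and 2664, 4879 and 1392 counts in Ptgs-deficient libraries. In CPM the values were 179, 260 and 186 against 480, 574 and 285. The groups did not overlap but nearly touched, the lowest Ptgs-deficient library being 1.09 times the highest Ptgs-competent one. The log2 fold change was 1.10 ± 0.37 (SE), with an unadjusted p of 0.0137 and an FDR of 0.346 by the quasi-likelihood test. Without Ptgs-deficient replicate 2 the unadjusted p was 0.0763. Scaled to the 10 macrophage markers, the log2 fold change was 0.16 with an unadjusted p of 0.780. With that scaling and without Ptgs-competent replicate 3 it was 0.68.

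Usp18 (ENSMUSG00000030107, chr6:121245906-121270917, plus strand), which removes ISG15 from proteins and dampens signaling at the type I interferon receptor, had 67, 0 and 0 counts in Ptgs-competent and 0, 145 and 43 counts in Ptgs-deficient libraries. Each group held a library at 0 and a library above 8 CPM, and the log2 fold change was 1.29 ± 2.94 (SE, unadjusted p of 0.670 by edgeR). A noncoding gene on the opposite strand, Gm44148, covers the 3′ end of Usp18. The strand setting of the counting was not stated, so it is unknown whether reads of the pair were shared or lost.

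Of the 4 genes of ISG15 conjugation, Ube2l6 and Herc6 were higher without overlap, as 11% of all tested genes were. Ube2l6, the conjugating enzyme for ISG15, had 0 counts in every Ptgs-competent library and 104, 182 and 242 counts in the Ptgs-deficient group. Its Ptgs-deficient mean was 56.1 times a floor of 3 counts per library, which covers counting error only. Herc6, the main ISG15 ligase of the mouse, had 0 counts in every Ptgs-competent library and 398, 291 and 42 counts in the Ptgs-deficient libraries. Its mean was 71.7 times that floor. Oasl2 had 538 counts in Ptgs-competent replicate 2 and 0 in replicate 3, so neither fold is a firm bound on the group difference. The quasi-likelihood test called neither (FDR of 0.250 and 0.208). The likelihood ratio test called both (FDR of 0.00770 and 0.00292), where it called 1.55% of tested genes higher. Both genes passed the count filter through the Ptgs-deficient libraries alone and so had to differ, and these p-values are no support for a difference. Trim25, a ligase that also activates the RNA sensor RIG-I, had a log2 fold change of 1.15 (unadjusted p of 0.0408) with overlapping groups, and Uba7, the activating enzyme, one of 0.44 (unadjusted p of 0.816).

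The OAS members did not separate the groups. Oas1a (ENSMUSG00000052776, chr5:120896256-120907521, minus strand), an oligoadenylate synthetase, had 576, 63 and 106 counts in Ptgs-competent and 242, 875 and 784 counts in Ptgs-deficient libraries. The means were 41.2 ± 43.4 CPM and 102 ± 58.4 CPM (SD, n = 3 each). The fitted difference was 1.31 ± 0.87 (SE) on the log2 scale, with an unadjusted p of 0.163 by edgeR. The single high Ptgs-competent value came from replicate 1, and without it the log2 fold change was 2.65. The last 400 bases of Oas1a share 43.6% of their 50-base windows with Oas1g, which had 97, 0 and 122 counts in Ptgs-competent and 0, 585 and 416 counts in Ptgs-deficient libraries, so that the level of either gene is uncertain. Oasl2 (ENSMUSG00000029561, chr5:114896936-114912234, plus strand), an OAS-like protein with ubiquitin-like domains, had 105, 538 and 0 counts in Ptgs-competent and 305, 408 and 411 counts in Ptgs-deficient libraries. Its Ptgs-deficient libraries lay close together, at 55.0, 48.0 and 84.1 CPM, inside the Ptgs-competent range of 0 to 87.3 CPM. The log2 fold change was 0.85 ± 1.47 (SE) with an unadjusted p of 0.577, and 0.33 without Ptgs-competent replicate 3.

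Mx1 (ENSMUSG00000000386, chr16:97447035-97462907, minus strand) encodes a GTPase that blocks influenza virus, and C57BL/6 mice are known to carry an allele that makes no functional protein. It had 0 counts in every Ptgs-competent library and 0, 130 and 59 counts in the Ptgs-deficient libraries, and it fell below the count filter. By counting error alone, a count of 0 allows up to 0.473, 0.487 and 0.639 CPM in the Ptgs-competent libraries. The Ptgs-deficient mean was 17.1 times the mean of these floors of 3 counts per library, carried by replicates 2 and 3. Its paralog Mx2 had 93, 0 and 0 counts and 102, 112 and 0 counts, with overlapping groups.

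Bst2 (ENSMUSG00000046718, chr8:71534255-71537456, minus strand) encodes tetherin, a membrane protein that holds budding virus particles at the cell surface. It had 1133, 2298 and 588 counts in Ptgs-competent and 2029, 4312 and 1835 counts in Ptgs-deficient libraries. In CPM the values were 179, 373 and 125 against 366, 508 and 375, so that the groups overlapped by a single library, Ptgs-competent replicate 2. The log2 fold change was 0.88 ± 0.43 (SE) with an unadjusted p of 0.0680 and an FDR of 0.668 by edgeR. Without Ptgs-competent replicate 2 it was 1.46 with an unadjusted p of 0.00574.

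Zero counts of the members were spread as follows. Of the 30 values of the 10 members in each group, 7 were 0 in the Ptgs-competent and 2 in the Ptgs-deficient libraries, Mx1 alone giving 3 and 1 of them. Over the 9 tested members 4 of 27 values (14.8%) and 1 of 27 (3.70%) were 0, where 15.9% and 9.27% of values were 0 among all tested genes, so that the Ptgs-competent share was near that background. Without Ptgs-competent replicate 3 the share was 1 of 18 (5.56%), where 14.1% of values of all tested genes were 0. By library, 1, 2 and 4 members were at 0 in the Ptgs-competent group and 2, 0 and 0 in the Ptgs-deficient group. The members with a 0 in some library were Ifit1, Oasl2, Mx1 and Usp18, and the other 6 had a count in every library. Of all tested genes, 44.4% were at 0 in 1 or more libraries. Even among the 5670 genes with a mean of at least 20 CPM, 1.18%, 7.65% and 7.64% were at 0 in the Ptgs-competent and 5.89%, 0.829% and 2.20% in the Ptgs-deficient libraries. A member at 0 in 1 library was therefore not detected there, which does not make it absent.

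To set the members against macrophage markers, their counts were divided by the summed counts of the 10 markers of the same library. This measure was added after the data were seen. C1qa and Lyz2 had the highest levels of the 10, at means of 3477 and 5739 CPM in Ptgs-competent and 6750 and 7964 CPM in Ptgs-deficient libraries. Csf1r and Mertk had ratios of group means of 1.05 and 0.939, while 6 of the 10 were higher without overlap. The measure therefore depends on the markers chosen. Rsad2 then stood at 4.08, 1.19 and 2.75 per 1000 marker counts in Ptgs-competent and 21.1, 16.6 and 8.85 in Ptgs-deficient libraries, a ratio of means of 5.81. Ifit2 had a ratio of 78.1 and Ifit3 one of 5.78, and for these 3 genes the groups again did not overlap. The share of all tested genes without overlap was not computed for this measure. Ifit2 had passed the count filter through the Ptgs-deficient libraries alone. For Isg15 the values were 11.1, 14.9 and 29.9 against 23.1, 27.7 and 11.4, with a ratio of 1.11 and overlapping groups. Bst2 had a ratio of 1.09, Oas1a 1.37 and Oasl2 1.38, all with overlap. Ifit1 had a ratio of 12.4 and Usp18 one of 1.81, also with overlap. Without Ptgs-competent replicate 3, whose marker sum was low, the ratios were 75.2 for Ifit2, 26.1 for Ifit3, 8.27 for Ifit1, 5.90 for Rsad2, 1.60 for Isg15, 1.45 for Oas1a, 1.20 for Usp18 and 1.18 for Bst2, while that of Oasl2 turned below 1, to 0.923. In the edgeR fit scaled to these markers the median log2 fold change of all genes moved to -0.95, and Ifit2 stood at 6.24, Ifit3 at 2.55, Rsad2 at 2.54, Isg15 at 0.16 and Bst2 at 0.12. Without Ptgs-competent replicate 3 that median was -0.31, and Ifit2 stood at 6.20, Ifit3 at 4.70, Rsad2 at 2.56, Isg15 at 0.68, Bst2 at 0.23 and Oasl2 at -0.12.

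**Figure D4:**
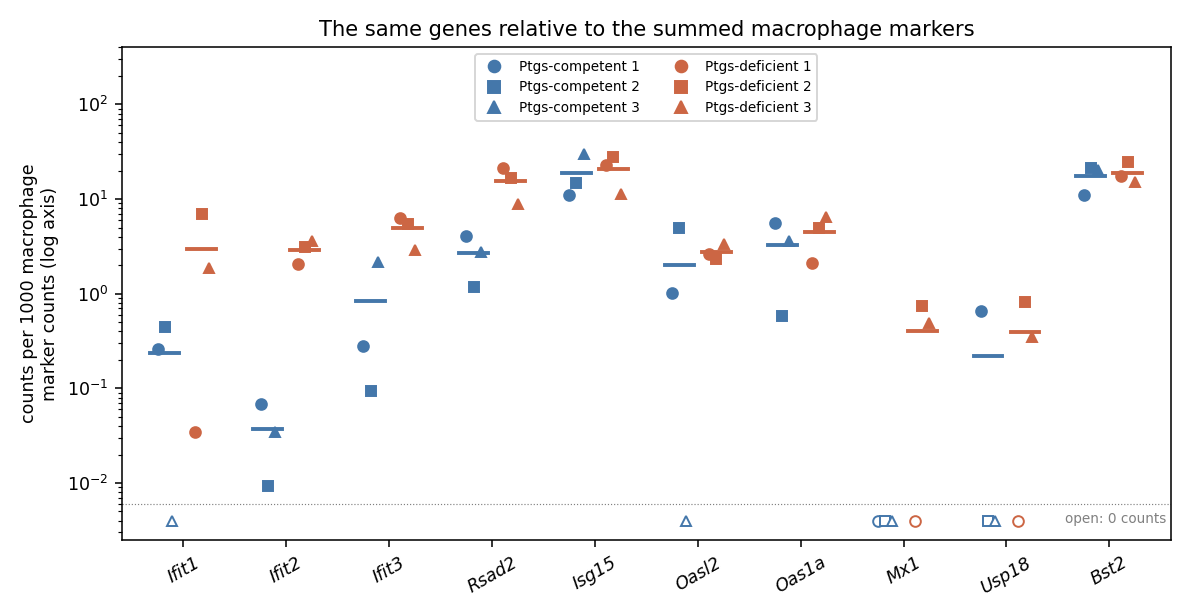
Counts of each member per 1000 counts of the 10 macrophage markers in the same library, on a log axis; colours, shapes, bars and open marks are as in the plot of CPM by library. Ifit2, Ifit3 and Rsad2 remain apart between groups, with ratios of means of 78.1, 5.78 and 5.81, while Isg15 and Bst2 overlap at ratios of 1.11 and 1.09. How many of all tested genes remain apart by this measure was not computed.

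Interferon transcripts themselves were almost undetected. Of 21 interferon genes listed, 19 were in the table, 18 of these had no count in any library, and Ifng had 1, 2 and 0 counts in Ptgs-competent and 0, 0 and 1 counts in Ptgs-deficient libraries. Among 14 genes of interferon receptors and signaling, all tested, 2 had an unadjusted p under 0.05 and both were higher, against 5.00% of all tested genes. Irf7, a transcription factor that is itself induced by interferon, lay at 152, 274 and 73.5 CPM in Ptgs-competent and 475, 425 and 458 CPM in Ptgs-deficient libraries, without overlap. The fitted log2 fold change was 1.44 ± 0.46 (SE, unadjusted p of 0.0103, FDR of 0.301 by edgeR). Irf1, a target of interferon-γ signaling, had a log2 fold change of 1.46 (unadjusted p of 0.0266) with overlapping groups. The median of the list was 0.69.

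Other antiviral effectors had a median log2 fold change of 1.26 over 25 tested of 28 listed genes, with 23 fitted fold changes above 0, 7 without overlap and higher, and 4 at an unadjusted p under 0.05, all higher. Over all tested genes the shares were 50.7%, 11% and 5.00%. Zbp1, a sensor of Z-form nucleic acid that triggers cell death, lay at 63.2, 73.2 and 52.4 CPM in Ptgs-competent and 186, 232 and 196 CPM in Ptgs-deficient libraries. The fitted log2 fold change was 1.70 ± 0.41 (SE), with an unadjusted p of 0.00187, an FDR of 0.158 by the quasi-likelihood test and an FDR of 0.0527 by the likelihood ratio test. The other 3 were Samhd1, which depletes nucleotides needed by retroviruses (log2 fold change 1.07, unadjusted p of 0.0194), Parp12, an ADP-ribosyltransferase (1.60, unadjusted p of 0.0247), and Rtp4, an interferon-induced protein (1.07, unadjusted p of 0.0370).

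Among 8 tested nucleic acid sensors, 0 had an unadjusted p under 0.05 and the median was 1.15. Tlr7, an endosomal sensor of single-stranded RNA, lay at 11.8, 6.33 and 0 CPM against 50.3, 53.0 and 47.2 CPM, with an unadjusted p of 0.0954, and Ddx58, which encodes RIG-I, had 80, 68 and 129 counts against 227, 400 and 232 counts, with an unadjusted p of 0.219. Both were without overlap. Of 14 further IFIT, OAS and MX paralogs, 7 were tested and 0 had an unadjusted p under 0.05, with a median of 1.32. Of the 7 tested, Oas3 alone was without overlap, a share near the 11% of all tested genes, at 42.1, 44.8 and 69.2 CPM against 82.2, 85.1 and 108 CPM (log2 fold change 0.82, unadjusted p of 0.182). Among those not tested, Oas1c had 0 counts in every Ptgs-competent library and 43, 57 and 1 counts in the Ptgs-deficient group. The 10 macrophage markers, for comparison, had a median of 0.94, with 5 at an unadjusted p under 0.05 and 6 without overlap, all higher, against 5.00% and 11% of all tested genes. Without Ptgs-competent replicate 3 their median was 0.66, again with 5 and 6 such genes, and the medians were 1.08 for the members, 1.09 for the paralogs, 1.24 for other effectors, 1.42 for sensors and 0.26 for receptors and signaling, of which 4, 0, 4, 1 and 1 genes were higher at an unadjusted p under 0.05. None of the interferon-related genes or of these 10 macrophage markers was called by the quasi-likelihood test.

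**Figure D5:**
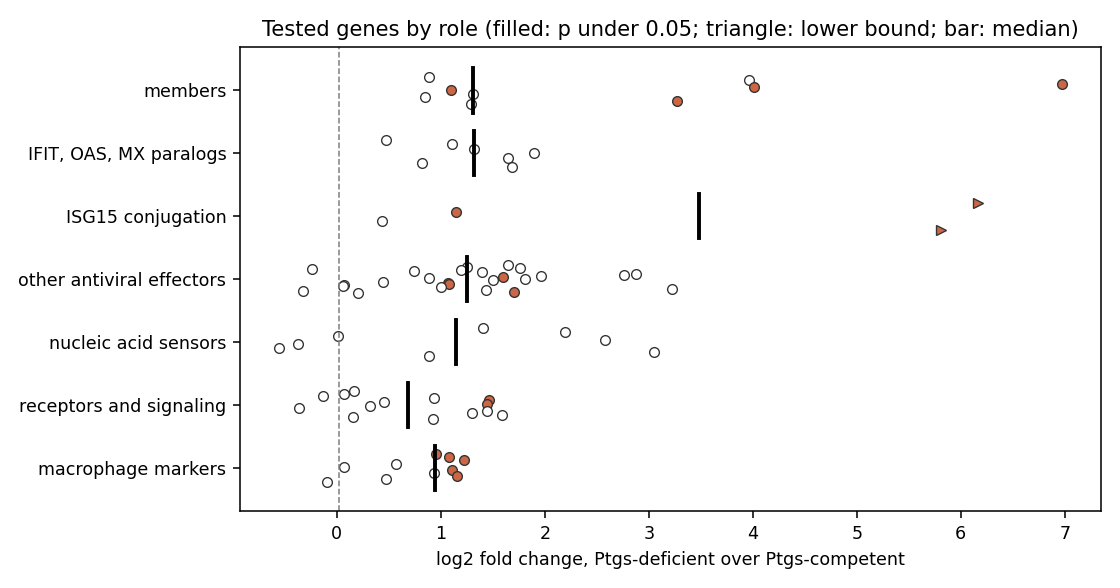
Log2 fold change, Ptgs-deficient over Ptgs-competent, of tested genes grouped by role; filled marks have an unadjusted p under 0.05 by edgeR, triangles are lower bounds for genes at 0 in every Ptgs-competent library, which passed the count filter through the Ptgs-deficient group alone, black bars are medians with those genes at their bound, and the dashed line is the median of all tested genes (0.02). The members spread from 0.85 to 6.97, while the macrophage markers lie around a median of 0.94.

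The members followed each other across the 6 libraries to different degrees. Pearson's r of each member's log2 CPM with the mean of the other tested members was 0.920 for Ifit2 and 0.892 for Rsad2, lay between 0.620 and 0.755 for Bst2, Isg15, Ifit1, Ifit3, Oas1a and Oasl2, and was 0.555 for Usp18. The 8 genes outside the set with the profile most like the members' mean were Itgam, Klf6, Cst3, Hist1h2bc, Ear2, Zfp36, Tmem261 and M6pr, with r of 0.979 to 0.989. Itgam, which encodes CD11b, was itself among the macrophage markers and in the sort gate. Of all 8793 tested genes, 2.97% had r over 0.9, and all points share their libraries, depth and the difference between groups, so these values describe the profiles only.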

How the data were processed

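TAMs were sorted as live F4/80+ CD11b+ leukocytes (CD45+) with little or no Ly6C and neither Ly6G nor NK1.1, and 800 pg of RNA per library was read from the 3′ end (QuantSeq FWD, no molecular identifiers stated). The authors deposited raw counts per gene, made with BBDUK, fqtrim, cutadapt, STAR (GRCm38) and featureCounts on Ensembl genes. Strand and multiple-alignment settings are not given in the sources used here. A 3′ count does not scale with transcript length. Nothing states that the tumor pools came from separate experiments, so p-values measure the spread between these 3 pools per group, and intervals and floors cover counting error only.

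Counts were filtered with filterByExpr (minimum count 10, total 15), scaled by TMM and tested with the quasi-likelihood test of edgeR 4.0.16 (R 4.3.3), two-sided, with Benjamini-Hochberg adjustment over 8793 genes. Calls needed an FDR no higher than 0.05 and an absolute log2 fold change no smaller than 1.5. CPM are TMM-scaled, and fold changes put the Ptgs-deficient group over the Ptgs-competent one. Alternatives used the likelihood ratio test, DESeq2 1.42.0, limma 3.58.1 (voom), other scalings and filters, a replicate block and each library left out, and 2 were added after the data were seen (scaling to macrophage markers, with all libraries and without Ptgs-competent replicate 3). On simulated counts for 7775 genes, the quasi-likelihood rule called 10.7%, 33.9% and 71.4% of genes with a true log2 fold change of 2, 4 and 6 in either direction, and 2 of 7608 unchanged genes.

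The members and the gene lists were chosen with earlier results of these data known. All members were named, with up to 5 tested genes of smallest p per interferon list, interferon ligands with a count, abundant or absent cell type markers, Ptgs1, Ptgs2, and the 8 genes of most similar profile (log2 CPM, prior count 2). Other genes named were chosen after their values were seen. Positions are from GENCODE M21 and promoters from RefSeq, both on GRCm38. Some items are not reported here.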

Additional observations from a re-analysis of the deposited data

How the results depend on the processing

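The fitted fold changes of the 9 tested members stayed above 0 in each alternative but 1. Oasl2 turned to -0.12 with macrophage scaling and Ptgs-competent replicate 3 left out together, an alternative chosen after seeing the data. Usp18 could not be fitted with a minimum mean of 20 CPM. The number of members called, 0 by the quasi-likelihood test, was 3 with the likelihood ratio test, 3 with DESeq2 and 3 without a filter on low counts (each time Ifit2, Ifit3 and Rsad2, so 2 besides Ifit2, which entered the filtered tests through the Ptgs-deficient libraries alone), and 1 (Rsad2) with voom. Over all genes, 19 were called, against 241 with the likelihood ratio test, 328 with DESeq2, 252 without a filter, 123 with voom, 1 with macrophage scaling and 0 to 25 with 1 library left out, lowest without Ptgs-competent replicate 1. The 4 members at an unadjusted p under 0.05 became 2 (Ifit2 and Rsad2) with macrophage scaling. There Ifit3 had an unadjusted p of 0.0838 by the quasi-likelihood test, and of 0.000666 when Ptgs-competent replicate 3 was also left out. With TMM scaling and 1 library left out, the 4 became 3 to 6. The 6 arose without Ptgs-deficient replicate 1, where all 10 members were tested and Mx1, at 0 in each Ptgs-competent library, passed the filter through the Ptgs-deficient libraries alone. The members' median log2 fold change of 1.31 became 3.10 with voom, 2.32 with a minimum mean of 20 CPM, 0.84 with macrophage scaling and 1.08 to 3.82 with 1 library left out, highest without Ptgs-competent replicate 1. The median of all genes was 0.39 with voom and -0.95 with macrophage scaling. The numbers of the replicates did not pair the samples, since deviations of same-numbered libraries correlated at -0.05, -0.02 and -0.02, and a replicate block gave 1 member called (Rsad2), a median of 3.49 and 77 genes called. With a minimum mean of 20 CPM the median was taken over 8 members, without Usp18, and lay between Oas1a at 1.34 and Rsad2 at 3.31. The cause of the other shifts was not tested. Low counts limit the fold of Ifit2 (9 counts in the Ptgs-competent group), Mx1 (0), Usp18 (67) and Ifit1 (75). Leaving out 1 library moved Ifit1 between 2.56 and 4.87, Oas1a between 0.84 and 2.65 and Oasl2 between 0.33 and 2.90 on the log2 scale. Usp18 moved between 0.31 and 8.69, the last without Ptgs-competent replicate 1, where all remaining Ptgs-competent libraries were at 0.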

Other observations

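Members of the set did not follow a single order among the Ptgs-deficient libraries, a pattern noticed after the values were seen. Replicate 1 had the highest Rsad2 (439 CPM) and Ifit3 (132 CPM) of that group but 0.721 CPM of Ifit1, where replicates 2 and 3 had 142 and 46.8 CPM, although Ifit3 and Ifit1 are neighbours on chromosome 19. It was also at 0 for Mx1, Usp18 and Oas1g, for the IFIT paralog Gm14446 (119 and 46 counts in replicates 2 and 3) and for the interferon-induced genes Ifi44 (389 and 310 counts) and Tdrd7 (334 and 456 counts). Other genes of the lists were highest in replicate 1, among them Herc6 (398 counts against 291 and 42), Dhx58 (128 CPM against 64.1 and 37.4 CPM), Helz2 (63.1 CPM against 11.7 and 41.3 CPM), Parp14 (230 CPM against 133 and 155 CPM) and Irf1 (369 CPM against 273 and 152 CPM). Among genes with a mean of at least 20 CPM, 5.89% were at 0 in replicate 1 against 0.829% and 2.20% in replicates 2 and 3. No test compares single libraries.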
